A study of Drosophila melanogaster with 10 samples.

Results

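Toll and Imd signalling are the routes by which flies switch on antimicrobial peptides, and this account describes 10 genes that carry or restrain those signals: spz, SPE, nec, Tl, cact, dl, Dif, imd, pirk and Rel. They were chosen by name as signalling components, with earlier results of these data known, and all 10 were found among the 11621 genes of the table. RNA was sequenced from brains of male Drosophila melanogaster of the wild-type W1118 strain aged 4 to 7 days. The HPLC flies had a high-protein, low-carbohydrate diet with protein to carbohydrate at 1 to 2, and the LPHC flies a low-protein, high-carbohydrate diet at 0 to 1, both at 360 g per L. Each diet had 5 libraries, and per the series design HPLC raised and LPHC lowered the taste response to sucrose. No transgene is labelled. Nor is it labelled if each library was made from its own pool of flies, and the p-values below reflect library-to-library spread, some of which may be technical.

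In the Toll pathway, microbial sensing outside the cell starts a chain of serine proteases that ends with the cleavage of Spätzle, the ligand of the receptor Toll. Inside the cell the signal destroys Cactus, an inhibitor that holds the NF-κB factors Dorsal and Dif in the cytoplasm. In the Imd pathway, receptors of the peptidoglycan recognition family act through the adaptor Imd on Relish, another NF-κB factor. Both pathways are best known from the fat body, the fly's equivalent of liver and fat tissue, and from haemocytes, its blood cells. Several of their components are also expressed in neurons and glia.

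On HPLC 7 of the 10 genes rose: SPE, nec, pirk, imd, spz, Rel and Dif, by 2.40-fold for SPE down to 1.23-fold for Dif as ratios of mean normalised counts. No member was called lower by limma, and none had an unadjusted p under 0.05 in that direction. Neither edgeR nor DESeq2 called a member lower. Tl, cact and dl passed in neither direction, with folds of 1.01, 1.04 and 0.997. A gene counts as called here when its limma p, adjusted by the Benjamini-Hochberg method over all 9896 genes tested, was under 0.05. Among all tested genes 22.1% were called higher and 18.9% lower. For the 7 genes that rose, every HPLC value lay above every LPHC value, which held for 17.4% of all tested genes. The members' median log2 fold change was 0.49, and that of all tested genes was −0.03.

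**Figure D1:**
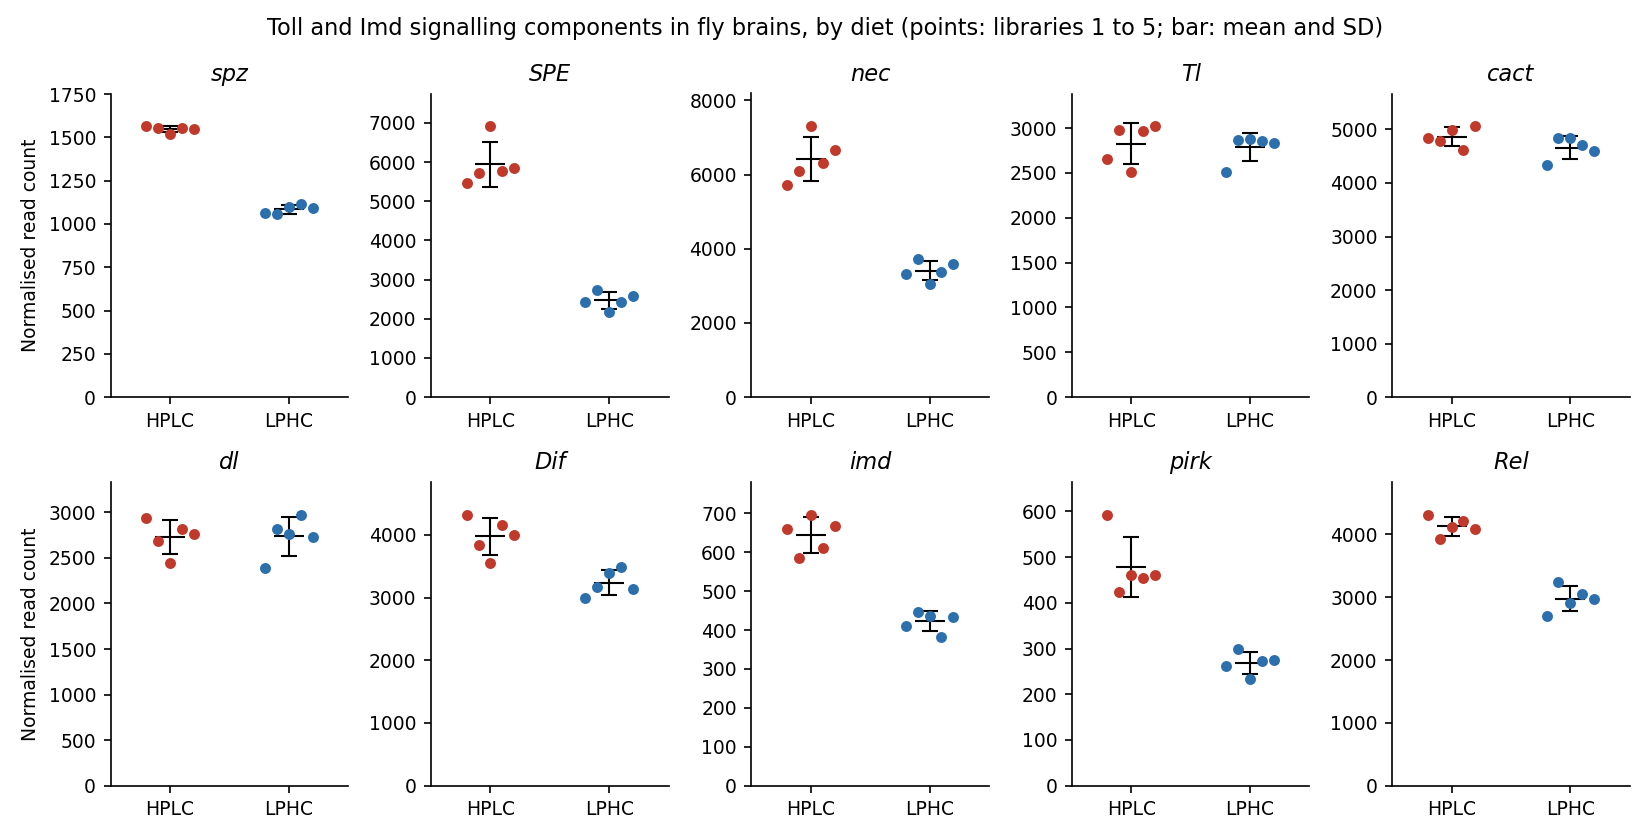
Normalised read counts (vertical axes, from 0) of the 10 genes in the 5 HPLC and the 5 LPHC libraries; points are libraries 1 to 5 from left to right, and bars give the mean and SD. The HPLC points lie above all LPHC points for spz, SPE, nec, Dif, imd, pirk and Rel, and the groups overlap for Tl, cact and dl.

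**Figure D2:**
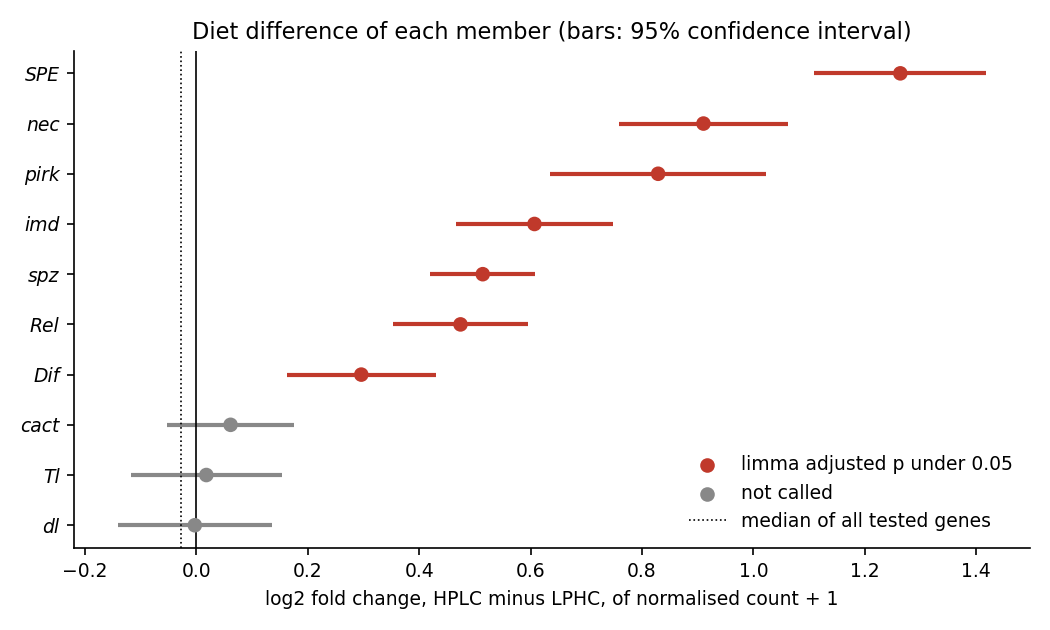
Log2 fold change, HPLC minus LPHC, of the normalised count plus 1 for each gene (horizontal axis), with its 95% confidence interval; red marks limma adjusted p under 0.05, and the dotted line is the median of all tested genes. The estimates run from −0.00 for dl to 1.26 for SPE.

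Libraries held between 19834344 and 38402635 reads. The member with the fewest reads in any library was pirk, with 167 reads in LPHC replicate 3, a counting error of 7.74%. Markers of neurons, glia and photoreceptors on the fixed lists were detected in every library, and the 10 photoreceptor genes took 7.999% to 9.87% of reads on HPLC and 10.7% to 11.8% on LPHC. Many markers of immune tissues moved with the diet. Of 12 fat body markers 9 were tested and all 9 were higher, and the 11 found in the table summed to normalised counts between 86701 and 112002 on HPLC and between 14923 and 21242 on LPHC. Of these fat body markers, Lsp1gamma was at 0 in 1 library. Lsp1gamma and Fbp1 fell short of the mean of 10 needed for testing. They averaged 2.15 and 7.93 on HPLC and 3.05 and 11.4 on LPHC, with overlap. Lsp2 and fit reached that mean only through HPLC, where they averaged 9177 and 194, against 3.25 and 2.60 on LPHC. Their place among the 9 tested markers thus depended on the diet in which they were high. Most of the sum in both diets came from apolpp, which averaged 68600.5 on HPLC and 14098.5 on LPHC. Of 12 haemocyte markers 7 were higher and 1 lower, with sums between 33964 and 37770 on HPLC and between 13538 and 22215.5 on LPHC, and none at 0. Glt and srp had the largest rises of these haemocyte markers, with means of 10028.5 and 3169.6 on HPLC and 911 and 707 on LPHC. Hml, Pxn, crq and PPO2 were not called. Of 8 glial markers 4 were higher and none lower, and of 10 neuronal markers none was higher and 3 were lower. Photoreceptor markers likewise had none higher and 3 lower of 10, and muscle markers none higher and 4 lower of 7 tested. These counts stand beside 22.1% of all tested genes called higher and 18.9% called lower. Whether retina or fat body was left on the brains is not labelled. The part of these cell types in the results below was not tested. In bulk RNA, a change in the number of cells of a type cannot be told apart from a change in RNA per cell.

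The extracellular genes SPE and nec showed the largest rises of the 10. SPE, the Spätzle-processing enzyme that cleaves the Toll ligand, had normalised counts of 5455, 5710.4, 6918, 5766 and 5843 in the HPLC libraries, against 2428, 2747, 2179, 2416 and 2586 in the LPHC libraries. All HPLC libraries lay far above all LPHC libraries, and HPLC replicate 3 was the highest of all. The mean was 5939 ± 567 on HPLC and 2471 ± 212 on LPHC (SD, n = 5 each), or 1.26 ± 0.07 on the log2 scale (SE, limma adjusted p = 2.41e-10).

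Necrotic, the product of nec, is a serpin that restrains the protease branch through Persephone. Its gene had normalised counts of 5734, 6095, 7310.4, 6324 and 6666 in the HPLC libraries and 3326, 3730.4, 3051, 3364 and 3602 in the LPHC libraries. The diets did not overlap, and HPLC replicate 3 was again the highest and LPHC replicate 3 the lowest, as for SPE. The means were 6426 ± 599.9 on HPLC and 3415 ± 263 on LPHC (SD, n = 5 each), and the log2 fold change was 0.91 ± 0.07 (SE, limma adjusted p = 1.55e-08).

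The ligand gene spz varied least of the 10 between libraries of a diet. Its normalised counts were 1565, 1552, 1520.0, 1551 and 1549 on HPLC and 1061, 1056, 1096, 1113 and 1092 on LPHC. The coefficient of variation was 1.08% on HPLC and 2.23% on LPHC, against 3.61% to 13.8% on HPLC and 4.55% to 8.94% on LPHC for the other 9 genes. Both spz values were below the counting error of its own reads, 785 to 1838 per library. The low spread is therefore not read as a trait of spz. The 1.43-fold difference in means was 0.51 ± 0.04 on the log2 scale (SE, limma adjusted p = 5.64e-08, n = 5 each).

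The receptor gene and the genes of its cytoplasmic switch changed little. Tl, which encodes Toll, had normalised counts of 2653, 2983, 2512, 2968 and 3023 on HPLC and 2516, 2862, 2879.5, 2859 and 2829.6 on LPHC. The ranges overlapped almost fully, and the 95% confidence interval of the difference allowed folds from 0.922 to 1.11 (limma adjusted p = 0.848, n = 5 each).

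For cact, the gene of the inhibitor, the values were 4845, 4781, 4996, 4622 and 5063 on HPLC and 4327, 4831, 4842, 4708 and 4597 on LPHC. Its interval ran from 0.964-fold to 1.13-fold (limma adjusted p = 0.385, n = 5 each). For dl, which encodes Dorsal, they were 2938, 2687, 2439, 2816 and 2762 on HPLC and 2393, 2812, 2768, 2976 and 2731 on LPHC. Its interval ran from 0.907-fold to 1.10-fold (limma adjusted p = 0.976, n = 5 each). LPHC replicate 1 was the lowest LPHC library for Tl, cact, dl, Dif and Rel. The small differences of Tl, cact and dl have no fixed direction. Their log2 fold changes were −0.09, −0.05 and −0.11 when libraries were scaled on the upper quartile, and 0.18, 0.22 and 0.16 when scaled on 10 neuronal markers, without passing the threshold in either case.

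Dif, the Dorsal-related factor that carries most adult Toll signalling, differed from dl. It had normalised counts of 4326, 3842, 3559, 4160.1 and 4005 on HPLC and 3001, 3167, 3388, 3489.7 and 3145 on LPHC. The diets came close without overlapping, with HPLC replicate 3 just above LPHC replicate 4. The means were 3978 ± 295 on HPLC and 3238 ± 197 on LPHC (SD, n = 5 each), or 0.30 ± 0.06 on the log2 scale (SE, limma adjusted p = 0.00130).

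All Imd pathway members rose. The adaptor gene imd had normalised counts of 660.4, 584, 697, 611 and 668 on HPLC and 411, 446, 437, 383 and 435 on LPHC. Its lowest HPLC library stood well above its highest LPHC library. The log2 fold change was 0.61 ± 0.07 (SE, limma adjusted p = 1.12e-06, n = 5 each), a ratio of means of 1.53.

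Pirk is an inhibitor that binds Imd and the receptors upstream of it, and its gene is itself induced by the pathway. Its normalised counts were 593, 423, 460.0, 455 and 461 on HPLC and 261, 299, 233, 272 and 274 on LPHC. HPLC replicate 1 stood apart above the other 4, which lay within 38 of one another, and all 5 were above the LPHC libraries. The log2 fold change was 0.83 ± 0.09 (SE, limma adjusted p = 1.25e-06, n = 5 each), and 0.75 without HPLC replicate 1.

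Rel, which encodes Relish, had normalised counts of 4316, 3920.1, 4112, 4218 and 4085 on HPLC and 2706, 3249, 2910.2, 3053 and 2966 on LPHC. The means were 4130.1 ± 149 on HPLC and 2977 ± 199 on LPHC (SD, n = 5 each), with no overlap, and the log2 fold change was 0.47 ± 0.06 (SE, limma adjusted p = 3.56e-06). Of the 3 NF-κB genes, Rel and Dif were thus called higher and dl was not.

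A ratio of members within a library keeps its value when the library is rescaled, save for the pseudocount, and 4 such ratios were tested by exact two-sided permutation of the diet labels, adjusted over the 4. Dif exceeded dl by log2 ratios of 0.56, 0.52, 0.55, 0.56 and 0.54 in the HPLC libraries and 0.33, 0.17, 0.29, 0.23 and 0.20 in the LPHC libraries. The difference of 0.30 between diets had an exact p of 0.00794, the smallest that 5 against 5 libraries can give, and an adjusted p of 0.0159. The diet difference of Dif was thus larger than that of its paralogue dl.

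For the ligand over its receptor, the log2 ratio of spz to Tl was −0.76, −0.94, −0.72, −0.94 and −0.96 on HPLC and −1.24, −1.44, −1.39, −1.36 and −1.37 on LPHC. All HPLC ratios were above all LPHC ratios, with a difference of 0.50 (exact permutation p = 0.00794, adjusted p = 0.0159, n = 5 each). For the inhibitor over its factor, the log2 ratio of cact to dl averaged 0.84 ± 0.13 on HPLC and 0.77 ± 0.07 on LPHC, and the diets overlapped (SD, n = 5 each; exact permutation p = 0.389, adjusted p = 0.389). The log2 ratio of pirk to imd averaged −0.44 ± 0.17 on HPLC and −0.66 ± 0.15 on LPHC (SD, n = 5 each; exact permutation p = 0.0397, adjusted p = 0.0529). That difference of 0.22 did not pass after adjustment, and it passed without HPLC replicate 3 (0.26, exact permutation adjusted p = 0.0423) or without LPHC replicate 4 (0.26, exact permutation adjusted p = 0.0423). In the other 12 alternatives it did not pass. With 1 library left out it was smallest, 0.15, without HPLC replicate 1. That library's log2 ratio was −0.15, against −0.43 to −0.60 in the other HPLC libraries.

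**Figure D3:**
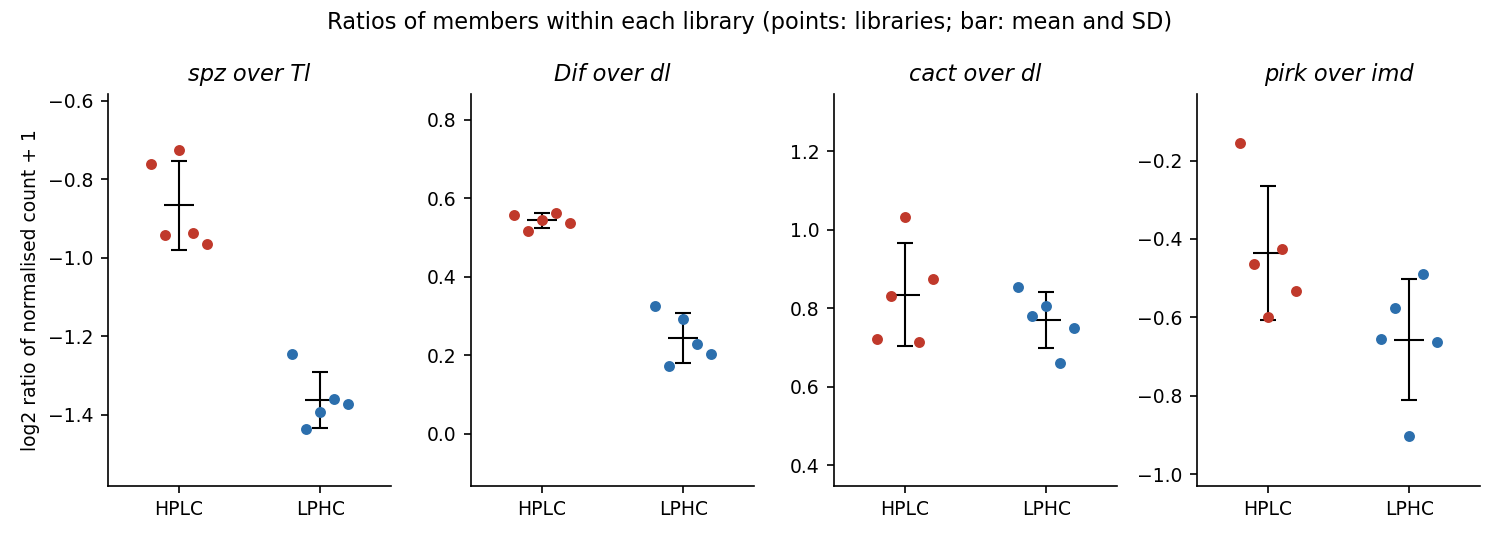
Log2 ratio of the normalised counts plus 1 of a pair of genes within each library (vertical axes, each spanning 1 log2 unit) in HPLC and LPHC libraries; points are libraries, and bars give the mean and SD. The diets separate for spz over Tl and Dif over dl and overlap for cact over dl and pirk over imd.

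Levels were compared between genes per kilobase of exon, using exon lengths of the Ensembl 115 annotation. A length covered all annotated exons of a gene over all its transcripts, such as 6432 bases for dl and 1518 for imd. The annotation behind the counts is not given, and the order between genes depends on these lengths. The extracellular genes SPE and nec stood highest, at 4687 ± 447 and 3935 ± 367 normalised counts per kilobase on HPLC and 1950.5 ± 167 and 2091 ± 161 on LPHC (SD, n = 5 each). Their ranges overlapped in both diets, so the order of the pair was not resolved. Below them came cact (1462 ± 52.7 on HPLC and 1402 ± 63.8 on LPHC), Rel (1180.4 ± 42.6 and 851 ± 56.8) and Dif (699 ± 51.9 and 569 ± 34.6), each apart from the one before it. The next level on HPLC was that of spz (655 ± 7.06), which overlapped with Dif, followed by Tl (544 ± 44.3). On LPHC Tl (537 ± 29.6) came before spz (458 ± 10.2). At the low end dl (424 ± 28.9 on HPLC and 425 ± 33.2 on LPHC) overlapped with imd on HPLC (424 ± 30.0) and with spz on LPHC, while imd on LPHC was lower (278 ± 16.9). The least abundant member was pirk, at 259 ± 35.7 per kilobase on HPLC and 145 ± 12.98 on LPHC.

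The annotation places spz, SPE, Tl and Rel on chromosome arm 3R, cact, dl and Dif on 2L, and nec, pirk and imd on 2R. Some member exons overlap those of other genes, and the strand setting of the counting is not given in the sources used here. SPE shares 107 bases, 8.45% of its exon length, with CG18754 on the same strand, whose mean was 41.1 on HPLC and 19.97 on LPHC. On the opposite strand, imd shares 40 bases (2.64%) with the glutathione transferase gene GstE9, which averaged 3547 ± 385 on HPLC and 589.5 ± 98.5 on LPHC (SD, n = 5 each). Nmdmc, a folate enzyme gene, lies on the same strand within the span of Rel without sharing exon bases and averaged 1962 ± 112 on HPLC and 402 ± 37.3 on LPHC (SD, n = 5 each). Dif shares 252 bases (4.42%) with CG15141, which averaged 690.0 on HPLC and 793 on LPHC. Whether reads of these neighbours were counted to imd, Rel or Dif was not tested.

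The other genes of the Toll pathway were read from fixed lists ordered by step. Of 32 tested, 14 were higher and none lower by limma (0 at an unadjusted p under 0.05, and 0 by edgeR and DESeq2), with a median log2 fold change of 0.12. By comparison, 22.1% of all tested genes were called higher and 18.9% lower. All 4 recognition genes were higher. PGRP-SD, which senses bacterial peptidoglycan, averaged 1502 ± 164 on HPLC and 155 ± 25.3 on LPHC, and GNBP3, which senses fungal glucan, 1844 ± 184 on HPLC and 582 ± 44.3 on LPHC (SD, n = 5 each). PGRP-SA and GNBP1, which act together on Gram-positive bacteria, had log2 fold changes of 0.88 ± 0.14 and 0.70 ± 0.07 (SE, limma adjusted p = 9.08e-05 and 2.88e-07).

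In the protease cascade around SPE and nec, 6 of 7 tested genes were higher. The protease genes Hayan, modSP and psh had log2 fold changes of 1.57 ± 0.08, 1.06 ± 0.06 and 0.92 ± 0.06, and Spn27A, a serpin of melanisation and Toll activation, 0.70 ± 0.06 (SE, limma adjusted p at most 5.16e-08). Among other Spätzle-like ligands and Toll-like receptors 2 of 9 were higher, spz3 by 0.40 ± 0.10 and Toll-4 by 0.94 ± 0.22 (SE, limma adjusted p = 0.00384 and 0.00290). The spz3 call was lost under quantile normalization (limma adjusted p = 0.0522). Between Toll and its factors 2 of 12 were higher, the adaptor Myd88 by 0.36 ± 0.06 and the kinase pll by 0.34 ± 0.06 (SE, limma adjusted p = 1.26e-04 and 2.42e-04), and the list's median was 0.00. The 2 of 9 and the 2 of 12 were close to or below the 22.1% of all tested genes called higher.

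Of 28 other Imd genes tested, 6 were higher and 4 lower, with a median log2 fold change of −0.01. Neither count exceeded the share of all tested genes called, 22.1% higher and 18.9% lower. Of 7 recognition genes 5 were higher. PGRP-SC2, among these 5, reached the mean of 10 needed for testing only through HPLC (19.99 on HPLC and 7.78 on LPHC). PGRP-LC, the main membrane receptor, averaged 2469 ± 118 on HPLC and 1563 ± 121 on LPHC (SD, n = 5 each), or 0.66 ± 0.06 on the log2 scale (SE, limma adjusted p = 8.07e-08). The amidases PGRP-SB1 and PGRP-LB, which break down peptidoglycan, had log2 fold changes of 2.46 ± 0.13 and 0.56 ± 0.07, and the decoy receptor PGRP-LF 0.79 ± 0.10 (SE, limma adjusted p at most 9.96e-06).

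Of 11 genes acting between Imd and Relish none was called higher by limma (1 at an unadjusted p under 0.05, and 0 by edgeR and DESeq2), and 2 were lower by small amounts. These were Diap2, a ubiquitin ligase, at −0.19 ± 0.05 and Tak1, a kinase, at −0.14 ± 0.05 (SE, limma adjusted p = 0.0105 and 0.0451). Of 10 intracellular genes besides pirk that the lists place among inhibitors, scny was higher (0.24 ± 0.06) and Charon (−0.43 ± 0.06) and CYLD (−0.17 ± 0.06) were lower (SE, limma adjusted p = 0.00377, 2.94e-05 and 0.0397). Whether each acts as an inhibitor here was not tested. Among all tested genes 18.9% were called lower and 22.1% higher, so the 2 of 11 and the 2 of 10 lower were close to that share. The 4 lower calls were absent when libraries were scaled on neuronal markers, where Charon stood at −0.27, while 11 genes were lower under upper-quartile scaling. The count was 2 without HPLC replicate 1, 2 or 4 or LPHC replicate 3 or 4, Charon and Diap2 in each case. Tak1 kept its call in 10 and CYLD in 12 of 22 alternatives, and scny lost its call under upper-quartile scaling (limma adjusted p = 0.0823).

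Most tested peptide genes that the pathways induce were higher beside the members, as the tested fat body markers and 7 of 12 haemocyte markers were. Of 22 peptide genes tested, 18 were higher and none lower by limma (0 at an unadjusted p under 0.05, and 0 by edgeR and DESeq2), with a median log2 fold change of 1.24. The share of all tested genes called higher was 22.1%. Among 15 Toll targets 14 were higher, led by BomT2, BomBc2, BomS6 and BomS4, short secreted peptides of the Bomanin family, at 2.16 ± 0.13, 2.08 ± 0.12, 2.30 ± 0.15 and 1.57 ± 0.14 (SE, limma adjusted p at most 5.22e-08). Bomanin genes resemble one another, and reads may be split among them. Among 13 genes listed as Imd targets 7 were tested and 4 were higher. A gene's place on 1 target list does not mean that only that pathway induces it. Def, the gene of defensin, averaged 766 ± 289 on HPLC and 20.04 ± 6.35 on LPHC, and AttC, an attacin gene, 395 ± 58.8 on HPLC and 59.1 ± 44.9 on LPHC (SD, n = 5 each). AttB, a near-copy of AttA from which its reads may not be separable, rose by 3.06 ± 0.17 and Dro, the gene of drosocin, by 1.11 ± 0.28 on the log2 scale (SE, limma adjusted p = 1.12e-10 and 0.00465).

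**Figure D4:**
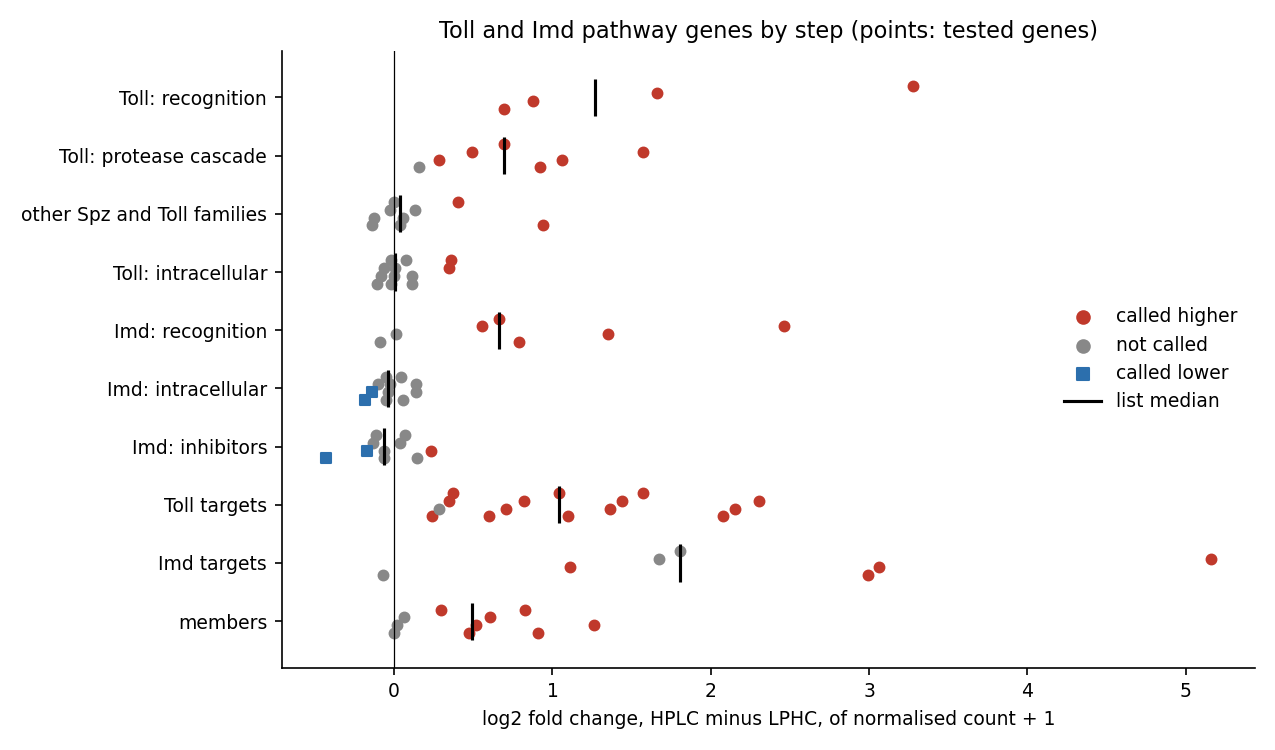
Log2 fold change, HPLC minus LPHC, of the normalised count plus 1 (horizontal axis) for each tested gene of the pathway lists, with the 10 members in the last row; red circles were called higher, blue squares lower and grey circles neither, and black bars are list medians. Medians lie at 1.27 for Toll recognition, 0.70 for its protease cascade and 0.66 for Imd recognition, and at 0.00 and −0.04 for the intracellular steps of Toll and Imd.

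The scaling of libraries set the size of each member's difference more than any single library did. The median of all genes was −0.03 as deposited, −0.14 under upper-quartile and under quantile scaling and 0.13 under neuron-marker scaling, and the members moved with it. The log2 fold change of SPE ranged from 1.15 to 1.43, and that of Dif, the smallest called, from 0.18 to 0.46. Dif remained called throughout, with an adjusted p of 0.0197 or less under each alternative. The same 7 members were called higher, and none lower, in all 22 alternatives, each library left out in turn included.

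**Figure D5:**
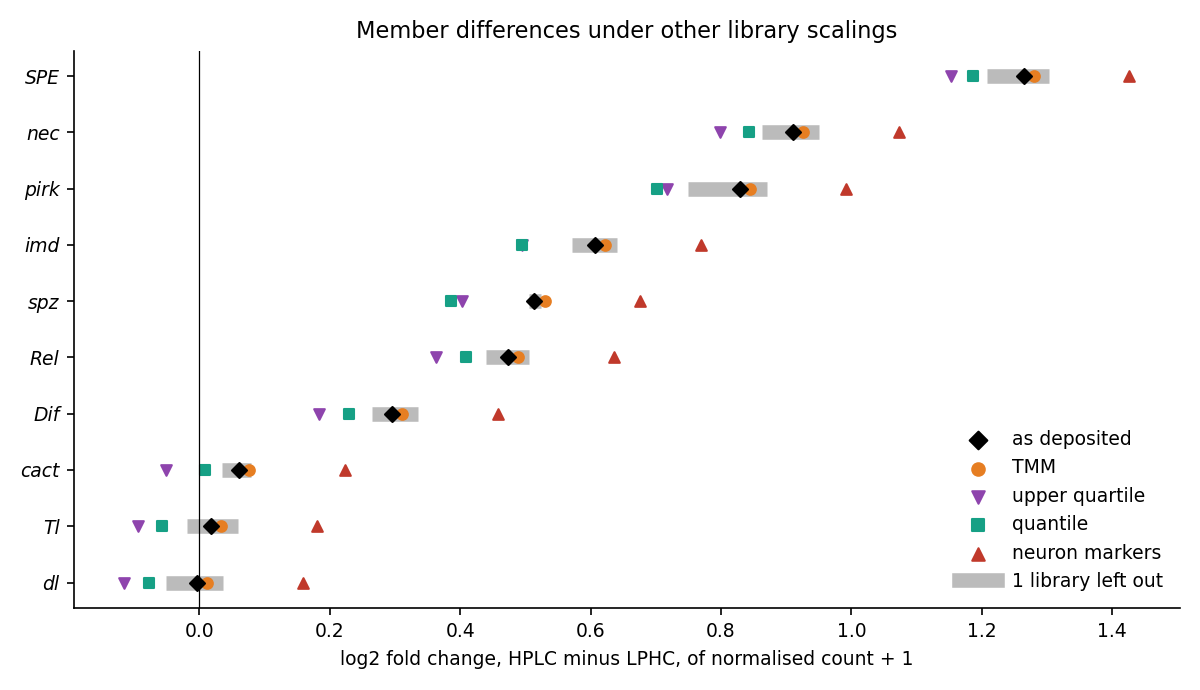
Log2 fold change, HPLC minus LPHC, of the normalised count plus 1 for each member (horizontal axis) as deposited and under 4 other library scalings; grey bars span the values when 1 library at a time was left out. The 7 called genes stay right of 0 under each scaling, and cact, Tl and dl lie on either side of it.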

How the data were processed

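The values the authors deposited are gene-wise normalised read counts of 10 libraries in 1 table, treated as a non-negative signal. The aligner HISAT2 is named per the submitters' processing notes. Not given in the sources used here are its version, the counter, strand setting, annotation and genome build. No coordinates are therefore printed. Each deposited signal was a whole multiple of 1 constant per library (100% of values, tolerance 1e-06), which gave back the reads behind it. Libraries were grouped by their titles.

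Differences were tested with limma-trend (limma 3.58.1, R 4.3.3, robust empirical Bayes, two-sided) on log2 of the value plus a pseudocount of 1, on 9896 genes whose mean reached 10, leaving out 1725. This scale understates changes of low genes. The call threshold was 0.05 after Benjamini-Hochberg adjustment. In counts simulated for this comparison over 9896 genes, 87.0% of 200 genes changed 1.5-fold and 96.5% of 200 changed 2-fold were recovered, and 4.40% and 8.96% of all calls were false. edgeR 4.0.16 and DESeq2 1.42.0 on the recovered reads called 2158 genes higher and 1874 lower, and 2218 and 1935, against 2185 and 1866 by limma. Other alternatives were the pseudocount, the filter, 4 scalings, a replicate block and leaving out each library. Leaving out LPHC replicate 1 together with HPLC replicate 3 was added after seeing the data.

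The members, from which the tested ratios were drawn, and the lists were chosen with earlier results of these data known. Besides the members, up to 4 called genes of each pathway list are named, by smallest adjusted p. Within a diet, every pair of libraries differed by more than counting noise (chi-square per degree of freedom 5.23 to 52.8).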

Additional observations from a re-analysis of the deposited data

Results flagged for a closer look

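Among 86 groups of 5 values screened, 7 held a library far from the other 4, and chance alone flags about 1 group in 20. SPE was 6918 in HPLC replicate 3, against 5455 to 5843 in the other HPLC libraries. The value of pirk was 593 in HPLC replicate 1, against 423 to 461 in the others. Tl was 2516 in LPHC replicate 1, against 2829.6 to 2879.5 in the others. LPHC replicate 4 was low for GNBP1 (275, others 293 to 300.1) and LPHC replicate 5 for scny (2665, others 2912 to 2976). LPHC replicate 2 was high for BomT2 (158, others 115 to 124) and for Dro (46.5, others 13.9 to 18.2).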

How the results depend on the processing

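Beside the members, counts of rises kept within 1.5 times of the main count under all 22 alternatives: 12 to 14 for other Toll genes, 5 to 7 for other Imd genes and 15 to 19 for targets. Counts of falls depended on scaling. Of other Toll genes 5 were lower under upper-quartile and 5 under quantile scaling (Deaf1, Pli, Toll-7, Traf6 and tub), and 0 to 1 with a library left out (Toll-7 without HPLC replicate 1, Toll-6 without LPHC replicate 1). With LPHC replicate 1 and HPLC replicate 3 both left out, 1 was lower (Toll-6). Of other Imd genes 2 were lower with TMM, 11 with upper-quartile, 10 with quantile and 0 with neuron-marker scaling, and 2 to 4 with a library left out. Tak1 turned to 0.024 under neuron-marker scaling. With no filter 1 target was lower (Mtk). The diet difference in the log2 ratio of pirk to imd ranged from 0.15, without HPLC replicate 1, to 0.26 with a library left out. The replicate numbers did not pair the libraries (correlations of same-numbered deviations −0.02 to 0.01). With a replicate block limma called the same 7 members higher, 3 other Imd genes lower, and DptA and DptB higher (adjusted p = 0.0399 and 0.0415). Paired by number, the log2 differences of spz over Tl within a library (0.50) and Dif over dl within a library (0.30) could not pass, since the exact test of 5 pairs gives no p under 0.0625. Without LPHC replicate 1 and HPLC replicate 3, a choice made after seeing the data, they were 0.49 and 0.32 (exact permutation adjusted p = 0.0571 each; 4 against 4 libraries give no p under 0.0286). Over all genes 2185 were higher and 1866 lower as deposited, 1684 and 3832 with upper-quartile, 1682 and 3902 with quantile, 2506 and 155 with neuron-marker and 2272 and 1603 with TMM scaling. The cause of these differences was not tested.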

Other observations

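Among the peptide genes, Mtk was lower on HPLC, and DptA and DptB had higher means on HPLC without being called. Mtk, the gene of the antifungal peptide metchnikowin, had normalised counts of 6.11, 4.22, 5.46, 2.74 and 4.21 in the HPLC libraries and 9.04, 20.3, 6.98, 24.7 and 13.1 in the LPHC libraries. The diets did not overlap and HPLC was the lower, but its mean was below the minimum of 10. With no filter its log2 fold change was −1.41 ± 0.34 (SE, limma adjusted p = 0.00369). The diptericin genes DptA and DptB averaged 50.4 ± 46.0 and 40.7 ± 12.9 on HPLC and 17.95 ± 22.3 and 17.7 ± 17.3 on LPHC (SD, n = 5 each), with overlap and limma adjusted p of 0.0720 and 0.0656. LPHC replicate 2 was the highest LPHC library for DptA, DptB, AttC and Dro. Without it both diptericin genes passed, at log2 fold changes of 2.23 for DptA and 2.30 for DptB (limma adjusted p = 0.00214 and 0.00713). DptB also passed without LPHC replicate 1 (limma adjusted p = 0.0333) and with a pseudocount of 5 (limma adjusted p = 0.0481). Over all alternatives the adjusted p ran up to 0.208 for DptA and 0.182 for DptB, the first by edgeR and the second by DESeq2. These genes were chosen after their values were seen.

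The 15 Toll targets together had normalised counts of 13948 to 21200.0 in the HPLC libraries and 6883 to 7539.5 in the LPHC libraries, with HPLC replicate 3 the highest. That library was also the highest of its diet for SPE, nec and imd and the lowest for spz, Tl, dl and Dif.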
